A study of Phaseolus vulgaris with 6 samples.

Results

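PAP85 is the symbol that 3 of the 19598 genes in the processed table carry, Phvul.007G060000, Phvul.007G059700 and Phvul.007G173600. They were chosen by these identifiers, all have the annotation of cupin family protein by homology to A. thaliana, and all lie on chromosome 7. In A. thaliana, PAP85 encodes a vicilin-like seed storage protein. Vicilins are globulins with a pair of cupin domains that are made in the developing cotyledon, folded in the endoplasmic reticulum, carried to protein storage vacuoles and broken down at germination to feed the seedling. In common bean the main globulin of this type is phaseolin, a name that the annotation of the table does not use.

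Developing pods of 2 navy bean cultivars were sequenced, Voyager with 3 samples and Albion with 3, each from its own pot. The study picked these cultivars for their unlike seed zinc, which it reports as higher in Voyager. The labels give Voyager a normal and Albion a low zinc concentration, while they also describe both as grown with sufficient Zn, the processed table is headed as high zinc, and the methods describe the same fertilization for both. The pods were 20 days past anthesis by the labels, and the methods of the study give an earlier age. A sample was the ground tissue of 2 whole pods, so pod wall and seed were mixed, and by the study's account seed made up a smaller part of pod weight in Voyager than in Albion. Pod makeup and genotype therefore cannot be told apart in these values. In such tissue, fewer cells of a type and less RNA per cell cannot be told apart.

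FPKM is a count of sequenced fragments scaled to the length of the transcript and to the reads mapped in the library. The authors combined the 3 samples of a genotype, so each gene has 1 pooled FPKM value in Voyager and 1 in Albion. The table gives neither the spread between samples nor the depth of each, so the genotypes are described here and were not tested against each other.

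PAP85 transcripts were among the most abundant in the pods of both cultivars, and nearly all of that level came from 2 genes that lie next to each other in the table, which made up 95.1% of the summed PAP85 FPKM in Voyager and 93.7% in Albion. Phvul.007G060000 (chromosome 7, 5079771 to 5081367, v1.0 genome) had 7440 FPKM in Voyager and 5795 FPKM in Albion. It ranked 8 of all listed genes in Voyager and 6 in Albion. This gene had the highest level of the 3 in both cultivars.

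Phvul.007G059700 (chromosome 7, 4959768 to 4961920) had 6671 FPKM in Voyager and 5284 FPKM in Albion, and ranked 9 in Voyager and 8 in Albion. It stood directly below its neighbour in the Voyager order, and in Albion only LTP3 (Phvul.010G069100), a lipid transfer protein gene, lay between them. Phvul.007G173600 (chromosome 7, 40719364 to 40721754) had 728 FPKM in Voyager and 742 FPKM in Albion. Its ranks were 127 in Voyager and 99 in Albion, so this gene too was abundant, at 56.2 times the median listed level in Voyager and 60.1 times in Albion (the median was taken over genes averaging 1 FPKM or more). For Phvul.007G060000 the same multiples were 575 in Voyager and 469 in Albion.

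**Figure D1:**
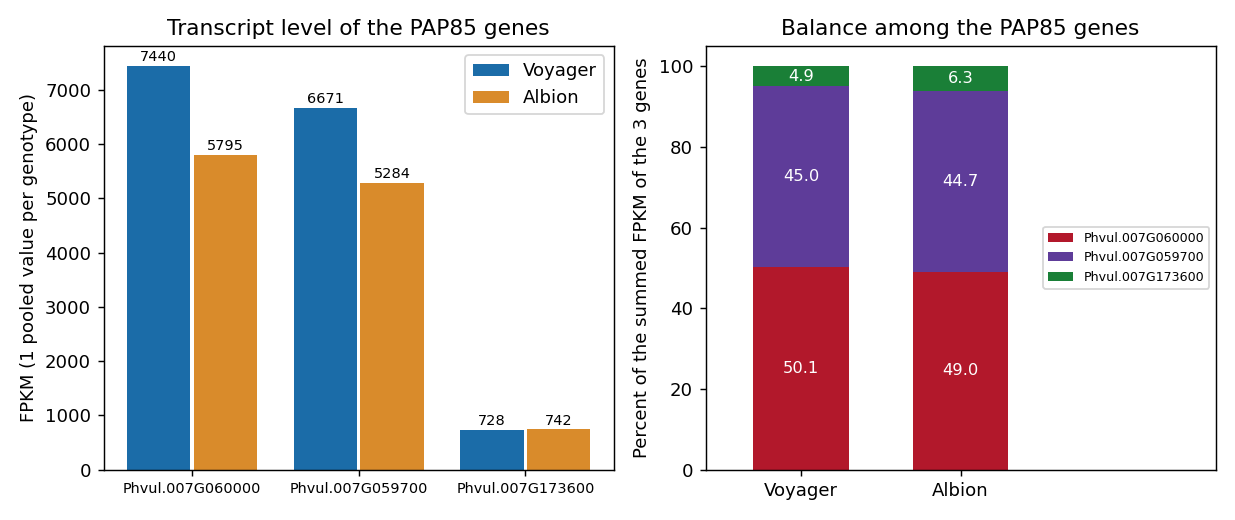
Left, FPKM of the 3 PAP85 genes, with 1 bar per genotype for the authors' pooled value (Voyager blue, Albion orange). Right, each gene's percent of the summed FPKM of the 3 genes. Phvul.007G060000 and Phvul.007G059700 stand at 5284 to 7440 FPKM and Phvul.007G173600 at 728 and 742 FPKM.

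Of the genes above the pair, 3 had gene models that span under 500 bases, and most had no annotation. Without models under that length, Phvul.007G060000 ranked 5 in Voyager and 3 in Albion, and Phvul.007G059700 ranked 6 in Voyager and 5 in Albion. Among genes with an annotation, Phvul.007G060000 ranked 3 in Voyager and 1 in Albion. Phvul.007G059700 then ranked 4 in Voyager and 3 in Albion, and Phvul.007G173600 ranked 97 and 75. The pair was therefore among the first 5 annotated genes of each cultivar.

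**Figure D2:**
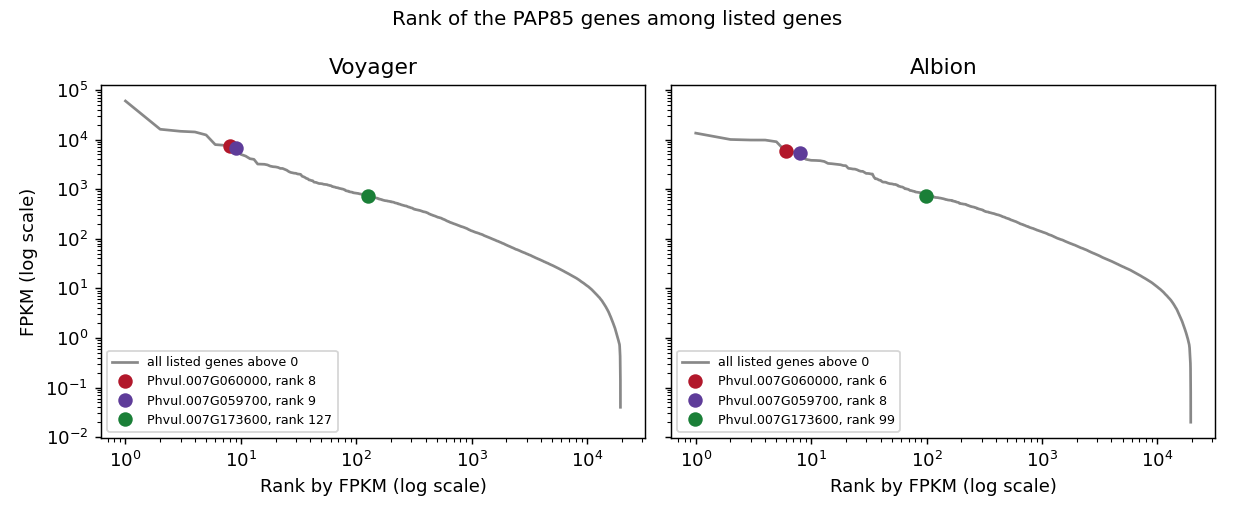
FPKM of all listed genes above 0 against their rank within Voyager (left) and Albion (right), both axes on a log scale, with the PAP85 genes as coloured points. The pair lies at ranks 8 and 9 in Voyager and 6 and 8 in Albion, and Phvul.007G173600 at 127 and 99.

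The 3 genes together summed to 14839 FPKM in Voyager and 11821 FPKM in Albion. This was 1.56% of the summed FPKM of all listed genes in Voyager (950155) and 1.42% in Albion (830694). Phvul.007G060000 made up 0.783% in Voyager and 0.698% in Albion, Phvul.007G059700 made up 0.702% and 0.636%, and Phvul.007G173600 made up 0.0767% and 0.0893%. The share of the pair was thus higher in Voyager and that of Phvul.007G173600 higher in Albion.

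The share depended on which other genes were summed. Leaving out the 10 other genes with the highest mean FPKM raised it to 1.85% in Voyager and 1.56% in Albion, so the gap between the cultivars widened. Among annotated genes alone, the 3 genes held 2.06% in Voyager and 1.77% in Albion. Of the FPKM on chromosome 7, where 2051 genes were listed, they held 14.9% in Voyager and 12.9% in Albion. For comparison, the upper 50% of the summed FPKM was held by 501 genes in Voyager and 649 in Albion.

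Within the 3 genes the balance was nearly the same in both cultivars. Phvul.007G060000 made up 50.1% of their summed FPKM in Voyager and 49.0% in Albion, and Phvul.007G059700 made up 45.0% in Voyager and 44.7% in Albion. Phvul.007G173600 made up 4.91% in Voyager and 6.28% in Albion, and its part was the one that differed most in relative terms. The ratio of Phvul.007G060000 to Phvul.007G059700 was 1.12 in Voyager and 1.10 in Albion. Against Phvul.007G173600, the level of Phvul.007G060000 was 10.2 times higher in Voyager and 7.81 times higher in Albion, and that of Phvul.007G059700 was 9.16 and 7.12 times higher.

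The order within the pair changed when FPKM was multiplied by the span of the gene. The models span 1596 bases for Phvul.007G060000, 2152 bases for Phvul.007G059700 and 2390 bases for Phvul.007G173600, introns included. Multiplied by this span, Phvul.007G059700 came first, with 51.3% of the sum in Voyager and 50.8% in Albion, and Phvul.007G060000 made up 42.5% in Voyager and 41.3% in Albion. FPKM is scaled to the transcript and not to this span, and exon lengths were not used here. Whether the order depends on transcript length was therefore not tested. Reads that match both genes of a pair of close copies can be divided between them, and how far this holds for these genes was not tested.

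The difference between the cultivars was taken as log2(FPKM + 1) in Voyager minus that in Albion. It was 0.36 for Phvul.007G060000, 0.34 for Phvul.007G059700 and -0.03 for Phvul.007G173600. As ratios of FPKM, Voyager over Albion, these were 1.28, 1.26 and 0.981. The differences of the pair lay 0.02 apart on this scale, while Phvul.007G173600 lay 0.39 below Phvul.007G060000 and 0.36 below Phvul.007G059700.

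Over the 18512 genes that averaged 1 FPKM or more, all 3 PAP85 genes among them, the median difference was 0.07 and the quartiles were -0.08 and 0.23. Of these genes, 85.7% had a lower difference than Phvul.007G060000, 84.2% a lower one than Phvul.007G059700 and 33.3% a lower one than Phvul.007G173600. None of the 3 genes reached a 2-fold difference on the log2(FPKM + 1) scale, which 2.43% of genes reached with the higher level in Voyager and 1.64% with the higher level in Albion. At 1.2-fold, 2 of the 3 were higher in Voyager, beside 21.6% of all genes, and 0 were lower, beside 10.7%. A higher level in Voyager by any amount was seen for 2 of the 3 genes and for 62.1% of all genes.

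The size of this difference depended on how the cultivars were scaled to each other. The summed FPKM was 1.14 times higher in Voyager than in Albion, and a single gene without annotation, Phvul.011G204500, made up 42.6% of that excess. With both cultivars brought to the same sum, a shift of -0.19 for Voyager, the differences became 0.17 for Phvul.007G060000, 0.14 for Phvul.007G059700 and -0.22 for Phvul.007G173600, and 0 of the 3 genes were 1.2-fold higher. The median over all genes moved to -0.11, and 1.2-fold calls over all genes became 2005 higher and 4404 lower in Voyager, where 4001 and 1984 were called as deposited. With the same upper quartile they were 0.28, 0.26 and -0.11, and only Phvul.007G060000 stayed 1.2-fold higher. Under the scalings tried, Phvul.007G060000 and Phvul.007G059700 kept a higher level in Voyager and Phvul.007G173600 a lower one.

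Genes of like abundance give a closer background. Of the 7 other genes that averaged 5000 FPKM or more, 6 were at least 1.2-fold higher in Voyager and 1 was lower, with a median difference of 0.51, above that of either gene of the pair. Of 59 other genes between 1000 and 5000 FPKM, 17 were 1.2-fold higher in Voyager and 10 lower, with a median of 0.01. Around the level of Phvul.007G173600, between 500 and 1000 FPKM, 155 other genes had a median difference of 0.13, above the -0.03 of this gene.

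**Figure D3:**
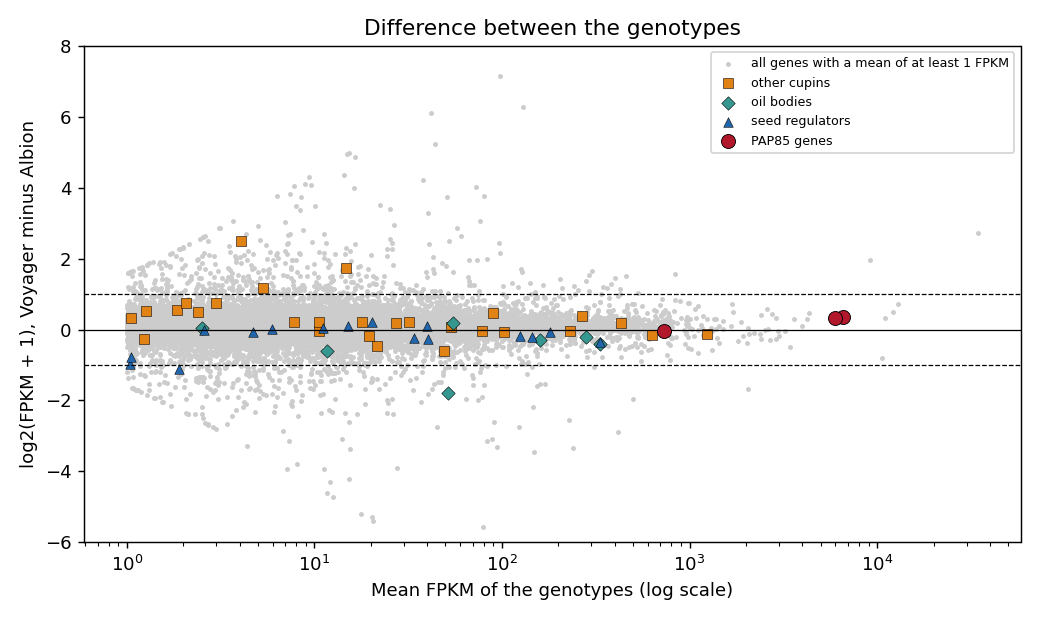
Difference in log2(FPKM + 1), Voyager minus Albion, against the mean FPKM (log scale) for genes averaging 1 FPKM or more (grey), with the PAP85 genes (red), other cupins (orange), oil body genes (green) and seed regulators (blue). Dashed lines mark a 2-fold difference. The PAP85 genes lie at -0.03, 0.34 and 0.36, inside the dashed lines.

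By pattern, the gene nearest to Phvul.007G060000 was LTP3, with 7910 FPKM in Voyager and 5561 FPKM in Albion. Their distance over the 2 pooled log2(FPKM + 1) values was 0.11, shorter than the 0.21 between Phvul.007G060000 and Phvul.007G059700. Among genes other than PAP85, LTP3 was also the nearest to Phvul.007G059700, at 0.26, followed for both by Phvul.002G090600 and Phvul.011G121000, which have no annotation. Nearest to Phvul.007G173600 were a lactate or malate dehydrogenase gene (Phvul.007G273500, distance 0.05), a photosystem II gene (Phvul.011G009700, 0.06) and the glutathione transferase gene GSTF9 (Phvul.008G195600, 0.09). With only 1 value per genotype, such likeness is one of level and holds over 2 points.

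Among the listed genes, the pair stood alone at its locus. Genes outside the list may lie near it and were not examined. Phvul.007G060000 starts 118 kb after the end of Phvul.007G059700, and 0 listed genes lie between them. The listed genes before the pair, Phvul.007G058300, Phvul.007G058400 and Phvul.007G058800, had 10 to 14.98 FPKM in Voyager and 11.9 to 12.9 FPKM in Albion. After it came CVL1 (Phvul.007G060200), with 2.51 FPKM in Voyager and 1.89 FPKM in Albion, and HMT3 (Phvul.007G060300), a homocysteine methyltransferase gene with 185 and 208 FPKM. The level of Phvul.007G060000 was 40.1 times that of HMT3 in Voyager and 27.8 times in Albion.

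Phvul.007G173600 lies 35.6 Mb further along the chromosome. The gene just before it, Phvul.007G173500, is annotated in the superfamily of inhibitors, lipid transfer proteins and 2S albumins, and had 0.82 FPKM in Voyager and 0.57 FPKM in Albion. The gene just after it, Phvul.007G173700, had 2.86 FPKM in Voyager and 2.79 FPKM in Albion. Over the 12 nearest listed genes of the 3 PAP85 genes, levels ran from 0.82 to 185 FPKM in Voyager and from 0.57 to 208 FPKM in Albion, and differences from -0.23 to 0.28. No neighbour reached the level of the PAP85 gene beside it, and no listed gene overlapped a PAP85 gene.

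**Figure D4:**
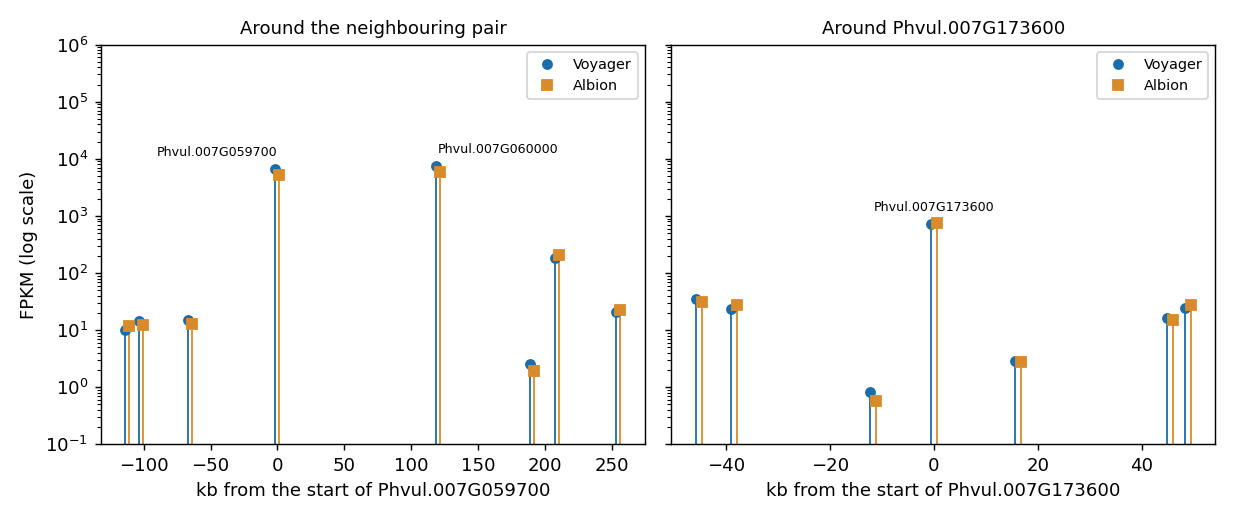
FPKM (log scale) of the PAP85 genes and the 3 nearest listed genes on either side, by distance in kb between gene starts (Voyager blue circles, Albion orange squares, set slightly apart). The PAP85 genes stand above all 12 neighbours, the highest of which is HMT3 at 185 and 208 FPKM.

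Besides PAP85, 29 genes had an annotation of cupin, germin or a related storage protein, and 28 of them averaged 1 FPKM or more. They summed to 3341 FPKM in Voyager and 3352 FPKM in Albion. The PAP85 genes therefore held 81.6% of the cupin FPKM in Voyager and 77.9% in Albion. Chromosome 7 had 14 of the 32 genes, PAP85 included, and the next was chromosome 2 with 4. Without PAP85, chromosome 7 had 11 of the 29, beside 2051 of all 19598 listed genes.

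The highest of the others was Phvul.007G192800, whose symbol CRA1 belongs to a cruciferin of A. thaliana, a storage globulin of the legumin type. It had 1181 FPKM in Voyager and 1291 FPKM in Albion, between the pair and Phvul.007G173600. Its difference of -0.13 was on the side of Phvul.007G173600 and not of the pair. Next were Phvul.002G027900, with 596 FPKM in Voyager and 661 FPKM in Albion, and Phvul.007G061700, with 458 and 400 FPKM, whose symbol ARD2 stands for an acireductone dioxygenase of methionine recycling. Phvul.002G239900 followed with 302 FPKM in Voyager and 233 FPKM in Albion, and the germin-like gene GLP10 (Phvul.007G207800) with 227 and 232 FPKM. The 3 PAP85 genes together had 12.6 times the level of CRA1 in Voyager and 9.16 times in Albion.

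Of the 28 other cupins, 3 were at least 2-fold higher in Voyager and 0 lower, beside 2.43% and 1.64% of all genes. At 1.2-fold, 11 (39.3%) were higher and 3 (10.7%) lower, beside 21.6% and 10.7%. Phvul.010G129700, Phvul.007G120600 and Phvul.007G229500, counted as higher, lay below 1 FPKM in Albion and passed the filter only through Voyager. The median difference of the 28 was 0.20, beside 0.07 over all genes, and with equal sums it was 0.02, beside -0.11. The differences ran from -0.62 to 2.48 (Phvul.010G129700), with 1.73 the next highest (Phvul.011G186600). The 3 PAP85 genes lay inside this range.

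**Figure D5:**
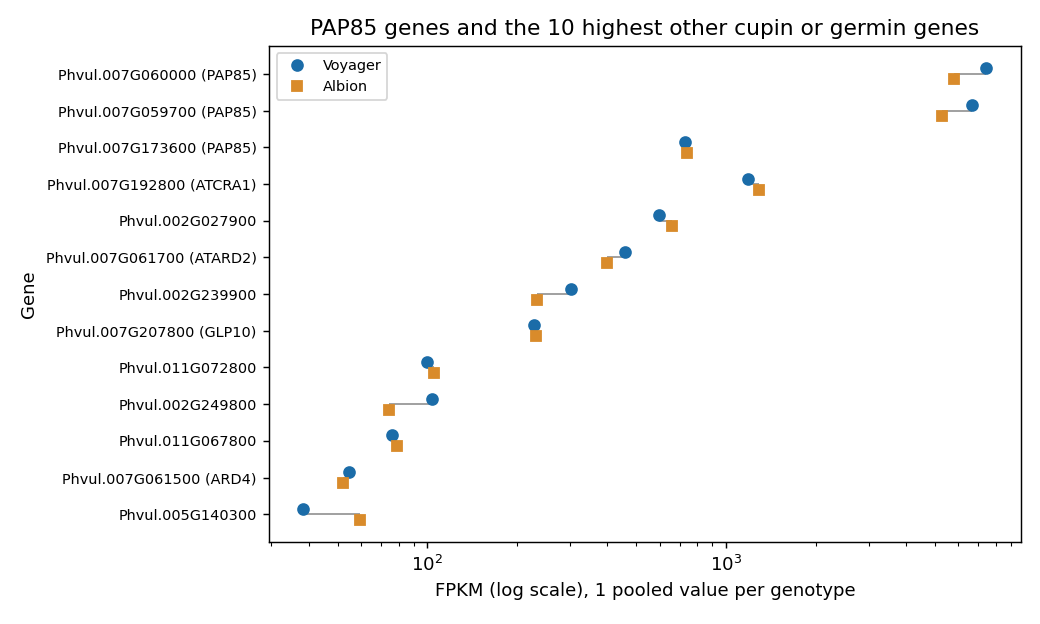
FPKM (log scale) of the 3 PAP85 genes and the 10 highest other cupin or germin genes in Voyager (blue circles) and Albion (orange squares), joined by a grey line. The pair stands at 5284 to 7440 FPKM, and the next gene, CRA1, at 1181 and 1291 FPKM.

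Other lists that hold seed products did not share one direction with the pair. Of 7 oil body genes (oleosins and caleosins, which coat seed lipid droplets), 4 were at least 1.2-fold lower in Voyager and 0 higher. Over all genes the shares were 10.7% lower and 21.6% higher. The median difference of the oil body genes was -0.30. OLEO1 (Phvul.007G138300) had 287 FPKM in Voyager and 382 FPKM in Albion. The caleosin gene Phvul.003G020700, the 1 oil body gene past 2-fold, had 22.6 and 80.8 FPKM. The list of 2S albumins and lipid transfer proteins, with 77 genes averaging 1 FPKM or more, had 30 genes (39.0%) 1.2-fold higher and 16 (20.8%) lower. Its median was 0.12 and became -0.03 with equal sums, beside 0.07 and -0.11 over all genes. LTP3 led that list, and its next gene, Phvul.006G138700, had 1778 FPKM in Voyager and 2290 FPKM in Albion. The list takes in a whole superfamily by annotation, so not all of its genes need be seed products. The 46 late embryogenesis genes were named for protectants of the drying seed but also held genes annotated as hydroxyproline-rich glycoproteins. Of these, 13 (28.3%) were 1.2-fold higher and 6 (13.0%) lower. Their median was 0.11 and turned to -0.05 with equal sums. Their highest gene, Phvul.007G215400, had 144 FPKM in Voyager and 148 FPKM in Albion, and the list as a whole summed to 1103 and 1008 FPKM, or 0.116% of the summed FPKM in Voyager and 0.121% in Albion. The PAP85 genes had 13.5 times that sum in Voyager and 11.7 times in Albion.

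The regulators of seed maturation known from A. thaliana were all present at levels below those of the PAP85 genes. Their list did not separate genes that activate seed maturation from genes that repress it. Of 16 such genes, 5 were at least 1.2-fold lower in Voyager and 0 higher, beside 10.7% and 21.6% of all genes. Of these 5, LEC1, LEC2 and the ABI5 gene Phvul.007G229600 lay below 1 FPKM in Voyager. They passed the filter on mean FPKM only through Albion, which favours a call as lower. The median difference of the 16 genes was -0.13, beside 0.07 over all genes. By any amount, 5 of the 16 were higher in Voyager, beside 62.1% of all genes. Among these were VAL2 (Phvul.006G191700, difference 0.21), PICKLE (Phvul.001G046100, 0.10), the bZIP53 gene Phvul.007G214300 (0.10) and ABI4 (Phvul.008G222400, 0.04). With equal sums, only VAL2 stayed higher, at 0.03. L1L (Phvul.003G087000), a subunit of nuclear factor Y, had 293 FPKM in Voyager and 376 FPKM in Albion, and the other L1L gene (Phvul.007G234800) had 175 and 184 FPKM. ABI3 (Phvul.008G122100), a B3 factor that binds promoters of storage genes, had 36.2 FPKM in Voyager and 44.2 FPKM in Albion. FUS3 (Phvul.001G086800), another B3 factor, had 5.99 and 5.93 FPKM. Its difference of 0.01 became -0.15 with equal sums, beside medians of 0.07 and -0.11 over all genes. The bZIP53 gene Phvul.001G212800 had 116 FPKM in Voyager and 133 FPKM in Albion, and the highest ABI5 gene (Phvul.005G124200) 134 and 155 FPKM. LEC2 (Phvul.002G229800) and LEC1 (Phvul.006G057800), which act early in embryo development, had 0.83 and 0.38 FPKM in Voyager and 2.95 and 1.71 FPKM in Albion.

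Genes of families that handle storage globulins after translation differed by list. Vacuolar processing enzymes are a family of proteases, some of which cut storage protein precursors. The 3 listed genes, annotated as gamma or beta forms, had differences from -0.06 to -0.02. The highest of them, a gamma form (Phvul.001G033500), had 161 FPKM in Voyager and 163 FPKM in Albion. Of 6 vacuolar sorting genes, annotated as sorting receptors or VPS35 homologs, 2 were 1.2-fold higher in Voyager, beside 21.6% of all genes. VSR3 (Phvul.002G052000) led the list with 146 and 120 FPKM. The median of the list, 0.09, turned to -0.10 with equal sums, beside 0.07 and -0.11 over all genes. The differences of these sorting genes ran from -0.08 to 0.35, up to the size seen in the PAP85 pair. Of 15 folding genes of the endoplasmic reticulum, 2 (13.3%) were 1.2-fold higher and 0 lower, beside 21.6% and 10.7% of all genes. The folding genes had a range of -0.09 to 0.50 and a median of 0.04 that turned to -0.15 with equal sums. Calreticulin (Phvul.007G200800) had 924 FPKM in Voyager and 935 FPKM in Albion, and the chaperone gene BIP2 (Phvul.002G301400) had 415 and 443 FPKM. These levels were below the 5284 to 7440 FPKM of the PAP85 pair, and calreticulin exceeded Phvul.007G173600 in both cultivars.

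Because pods hold wall and seed, markers of both are set beside PAP85. The seed markers named above (OLEO1, ABI3, FUS3, LEC1 and LEC2) were all measured. Of these 5, OLEO1 and ABI3 had the lower level in Voyager, also with equal sums. FUS3 went from 0.01 to -0.15 with equal sums, near the median over all genes, which went from 0.07 to -0.11. LEC1 and LEC2 were lower too, but lay below 1 FPKM in Voyager and passed the filter on mean FPKM only through Albion. Of the other oleosin genes, Phvul.009G103600 and Phvul.008G144500 were lower in Voyager. The difference of Phvul.003G177800 was 0.05 as deposited and -0.09 with equal sums, beside medians of 0.07 and -0.11 over all genes. Oil body genes summed to 785 FPKM in Voyager and 1007 FPKM in Albion, and seed regulators to 891 and 1032 FPKM. Light harvesting and photosystem genes, markers of green tissue, summed to 15057 FPKM in Voyager and 16250 FPKM in Albion. Of these 76 genes, 15 (19.7%) were 1.2-fold higher and 18 (23.7%) lower, beside 21.6% and 10.7% of all genes. Secondary wall genes of fibre and xylem summed to 1548 FPKM in Voyager and 1402 FPKM in Albion, with 15 of 32 genes (46.9%) 1.2-fold higher and 6 (18.8%) lower. With equal sums, 7 of the secondary wall genes were higher and 8 lower, beside 2005 and 4404 of all genes. Their median difference of 0.20 became 0.05, while that over all genes became -0.11. The share of these wall genes in the summed FPKM was 0.163% in Voyager and 0.169% in Albion. Among them, the cellulose synthase genes CESA4 (Phvul.009G242700) and CESA7 (Phvul.009G205100) had 288 and 106 FPKM in Voyager and 234 and 85.4 FPKM in Albion. The sum of PAP85 was 18.9 times that of the oil body genes in Voyager and 11.7 times in Albion. The part of the unequal pod makeup in the PAP85 levels was not tested.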

How the data were processed

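Developing pods of Voyager and Albion (3 samples each) were sequenced. The authors filtered the reads with the FASTX-Toolkit, aligned them with TopHat 1.4.1 (Bowtie 0.12.7) to the v1.0 genome and estimated FPKM with Cufflinks 1.3.0. Cuffdiff combined the 3 samples of a genotype, and the authors deposited 1 FPKM value per gene and genotype, rounded to 2 decimals. The deposited table also holds the authors' fold change, test statistic, p-value and q-value, which were not used. The table gives no depth per sample, the study states the mapped reads only as an average, and the alignments were not used here. No value has an error.

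Shares, ranks and differences were computed in Python 3.11.15 with pandas 2.3.3 and numpy 2.4.6. Differences are log2(FPKM + 1), Voyager minus Albion, with lists and background restricted to genes that average 1 FPKM or more. Functions were tested on simulated data. Without replicate values no test was made. Alternatives covered the pseudocount, the filter, the scaling, the genes summed or ranked and the gene span.

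Gene lists were made from words of the annotation. Annotations matching by letters only (such as pollen germination genes for germin) were left out. Named genes are the PAP85 genes, the 5 highest of each list, all seed regulators, the 3 nearest genes on either side, the 10 highest genes and the 3 nearest in pattern. Not all of these are printed, and the cupins of the closing section were named after their values were seen. The members and lists were chosen with earlier results of these data known. The RefSeq gene table matched 0 of the 3 identifiers, and sequences were not used here.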

Additional observations from a re-analysis of the deposited data

How the results depend on the processing

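No paired analysis was possible because the values are pooled over the samples of a genotype, which also left no sample to leave out. Balance by exon length was not run, since the table gives only the span of a gene. The pseudocount changed no PAP85 difference by more than 0.1. Beyond the values given above, leaving out gene models under 500 bases gave a PAP85 share of 1.80% in Voyager, and the share without the 10 highest other genes was 1.85%. Ranks without those short models were 5 for Phvul.007G060000 in Voyager, and 3 for it and 5 for Phvul.007G059700 in Albion. Among annotated genes they were 3 and 4 in Voyager and 1 and 3 in Albion. With FPKM multiplied by span, the balance of Phvul.007G059700, Phvul.007G060000 and Phvul.007G173600 was 51.3%, 42.5% and 6.22% in Voyager and 50.8%, 41.3% and 7.92% in Albion. With equal sums the differences of these genes were 0.14, 0.17 and -0.22. The number of PAP85 genes 1.2-fold higher in Voyager, 2 as deposited, was 0 with equal sums and 1 with equal upper quartiles or with equal sums without the 10 highest other genes, a scaling chosen after seeing the data. An equal sum also lowered the 1.2-fold higher counts to 3 for late embryogenesis, 0 for vacuolar sorting, 1 for folding, 9 for green tissue and 7 for secondary wall genes. It raised the 1.2-fold lower counts to 7 for other cupins, 10 for late embryogenesis, 9 for seed regulators, 1 for vacuolar sorting, 1 for folding and 33 for green tissue genes. Counts of 2-fold lower genes became 3 for 2S albumins and 2 for seed regulators, and secondary wall genes 2-fold higher became 0, against 3 as deposited. A pseudocount of 0.1 gave 2-fold lower counts of 2 for 2S albumins, 4 for late embryogenesis and 3 for seed regulators, and 2-fold higher counts of 1 for late embryogenesis and 6 for green tissue genes. The other 113 list counts stayed within 1.5 times. With pooled values, a difference of 1.2-fold cannot be set against the spread between pots.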

Other observations

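The 3 other cupins at least 2-fold higher in Voyager had levels below that of each PAP85 gene. The germin 3 gene Phvul.010G129700 had 7.56 FPKM in Voyager and 0.53 FPKM in Albion, Phvul.011G186600 had 23.1 and 6.27 FPKM, and Phvul.006G050900 had 7.75 and 2.85 FPKM. The 3 PAP85 genes contributed 2.53% of the excess of the summed FPKM in Voyager over Albion, which was 119461, and their own sum differed by 3019 FPKM.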
